A study of Mus musculus with 15 samples.

Results

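The genes of the mouse T helper 2 (Th2) cytokine locus were followed in 15 RNA-seq libraries of cultured Th2 lymphocytes. There were 6 members, named by symbol, of 56748 genes in the table: Il4, Il5, Il13, Rad50, Kif3a and Il24. Kif3a, Il4, Il13, Rad50 and Il5 stand next to each other in this order on chromosome 11, whereas Il24 lies beside Il20, Il19 and Il10 on chromosome 1. All 6 passed the filter on low counts, which kept 15619 genes.

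Naive CD4+ cells came from spleens of female mice. Conditional knockout (cKO) cells had the genotype VEC-Cre;Asb2fl/fl, in which Cre recombinase is driven by the VE-cadherin promoter, which is on in endothelial cells and in blood precursors. Control cells had the same Asb2fl/fl alleles without Cre and are titled WT in the labels. Asb2 encodes the part of a ubiquitin ligase that binds its substrates. All cells were first cultured for 3 days on bound anti-CD3ε with interleukin 2 (IL-2), IL-4, anti-CD28 and anti-IFNγ, and then for 3 days with IL-2 and IL-4 at 20 ng/ml each, so every group had IL-4 protein in its medium. On day 5, stimulated cells were given 3 µg/ml of plate-bound anti-CD3ε together with 2 µg/ml of anti-CD28 in solution for 24 h, and non-stimulated cells were given neither. The groups held 4 stimulated cKO, 5 stimulated control, 3 non-stimulated cKO and 3 non-stimulated control libraries.

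Th2 cells are known for secreting IL-4, IL-5 and IL-13 upon engagement of the T cell receptor. IL-4 drives Th2 differentiation and class switching in B cells, IL-5 supports eosinophils, and IL-13 acts on epithelium, smooth muscle and mucus-producing cells. In the mouse the 3 genes are opened together during differentiation by the transcription factor GATA3 and by a locus control region that lies within Rad50, and their acute transcription depends on NFAT and other factors activated through the receptor. Rad50 encodes a DNA repair protein and Kif3a a subunit of the kinesin-2 motor, and both are broadly expressed. IL-24 is a cytokine of the IL-10 family that Th2 cells also make.

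The promoters of the members that the RefSeq table held are shown for the NFAT core (GGAAA, or TTTCC on the opposite strand), which is in capitals. Each run holds the 250 bases before the annotated start in GRCm38.p6, written 5′ to 3′ on the strand of the gene. The windows were chr11:53618666-53618915 on the minus strand for Il4, chr11:53720544-53720793 on the plus strand for Il5, chr11:53634703-53634952 on the minus strand for Il13 and chr11:53567119-53567368 on the plus strand for Kif3a. The Il4 window is the one of the 2 listed Il4 starts that lies farther upstream.
Il4: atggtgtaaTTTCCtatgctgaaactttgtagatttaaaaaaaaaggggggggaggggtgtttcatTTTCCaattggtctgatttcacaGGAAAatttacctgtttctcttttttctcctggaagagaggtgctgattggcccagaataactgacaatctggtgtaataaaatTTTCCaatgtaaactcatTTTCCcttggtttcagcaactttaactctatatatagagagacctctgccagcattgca
Il5: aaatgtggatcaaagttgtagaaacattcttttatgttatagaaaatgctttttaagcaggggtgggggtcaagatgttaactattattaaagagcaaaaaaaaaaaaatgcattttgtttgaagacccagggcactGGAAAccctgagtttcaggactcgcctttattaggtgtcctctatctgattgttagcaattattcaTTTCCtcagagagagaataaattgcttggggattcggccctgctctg
Il13: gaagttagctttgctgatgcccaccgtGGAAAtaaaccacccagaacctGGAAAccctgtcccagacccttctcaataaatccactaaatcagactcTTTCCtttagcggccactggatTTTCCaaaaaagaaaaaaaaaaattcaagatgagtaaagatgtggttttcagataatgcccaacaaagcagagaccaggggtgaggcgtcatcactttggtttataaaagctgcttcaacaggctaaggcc
Kif3a: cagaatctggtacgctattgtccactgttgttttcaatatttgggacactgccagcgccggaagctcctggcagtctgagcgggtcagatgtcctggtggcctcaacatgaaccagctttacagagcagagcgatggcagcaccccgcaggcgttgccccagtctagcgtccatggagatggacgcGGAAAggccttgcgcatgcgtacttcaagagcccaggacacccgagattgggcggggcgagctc
The Il4 window held 5 NFAT cores, the Il13 window 4, the Il5 window 2 and the Kif3a window 1. At least 1 such core was present in 55.6% of 32851 promoter windows of this length, searched on both strands. A GATA site (GATA after A or T and before A or G, on either strand) stood at -81 to -76 before the Il13 start and at -72 to -67 before the Il5 start, and 26.5% of all windows held one. A STAT site (TTCNNNNGAA) stood at -167 to -158 before the Il4 start, where it overlapped the NFAT core at -161 to -157, and 5.85% of all windows held one. A TATA box (TATAAA) stood at -29 to -24 before the Il13 start and overlapped a match on the opposite strand at -31 to -26, and 12.4% of all windows held one. None of the 4 windows held an AP-1 site of the form TGANTCA, which 6.75% of all windows held. The window of the other listed Il4 start, not shown, held no NFAT core and had a GATA site at -80 to -75. These matches describe the letters of the windows only.

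Library totals lay between 17.1 and 24.2 M estimated counts. Mitochondrially encoded RNA took 9.43% of the counts in stimulated cKO replicate 3, against 4.36% to 6.24% in the other libraries, and this library had the lowest scaling factor, so the main differences of the 6 genes that involve stimulated cKO cells are also given without it. Asb2 was lower in cKO libraries: 9.49 ± 0.115 CPM (counts scaled to library size) in stimulated cKO against 33.5 ± 2.72 CPM in stimulated control cells (SD, n = 4 and 5), and 19.2 ± 5.62 CPM in non-stimulated cKO against 36.7 ± 12.2 CPM in non-stimulated control cells (SD, n = 3 each). The table holds 1 value for the whole gene, and neither pair of groups overlapped. By edgeR the difference passed an adjusted p of 0.05 in stimulated cells but not in non-stimulated cells. The labels do not say that libraries came from separate mice, so p-values measure the spread between these libraries only. In bulk RNA a change in the number of cells that make a transcript and a change in the amount per cell cannot be told apart.

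Levels between genes were compared in TPM, which scale reads for transcript length and library size. In stimulated cells Il13 stood highest, followed by Il5 and Il24 at about the same level, then Il4, Rad50 and Kif3a, in both genotypes. Il13 averaged 1686 TPM in stimulated cKO and 1766 TPM in stimulated control cells, and it ranked 42 to 85 and 41 to 61 among the 15619 genes of these libraries. Il24 averaged 773 and Il5 766 TPM in stimulated cKO cells, and in stimulated control cells Il24 averaged 763 and Il5 787 TPM, with overlapping ranges in both. Il4 averaged 350 TPM in stimulated cKO and 328 TPM in stimulated control cells, below every library's Il5 and Il24 value. Rad50 (63.5 and 70.8 TPM in cKO and control cells) and Kif3a (32.3 and 34.0 TPM in cKO and control cells) followed, and their ranges were apart from each other in both genotypes.

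The order was different without stimulation. Il24 was then the most abundant member, with 71.0 TPM in non-stimulated cKO and 70.4 TPM in non-stimulated control cells, ahead of Rad50 with 42.0 TPM in cKO and 38.5 TPM in control cells. Their ranges overlapped in cKO cells and were apart in control cells. Il4 (20.7 and 26.0 TPM), Il13 (19.3 and 24.2 TPM) and Kif3a (19.0 and 21.0 TPM, each in cKO and control cells) overlapped each other in both genotypes, and Rad50 and Il4 overlapped in control cells. Il5 came last with 1.44 TPM in cKO and 2.34 TPM in control cells, below every value of the other members. Its rank was 11548 to 12371 in non-stimulated cKO and 9975 to 11547 in non-stimulated control cells, against 122 to 174 in stimulated cKO and 109 to 164 in stimulated control cells.

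**Figure D1:**
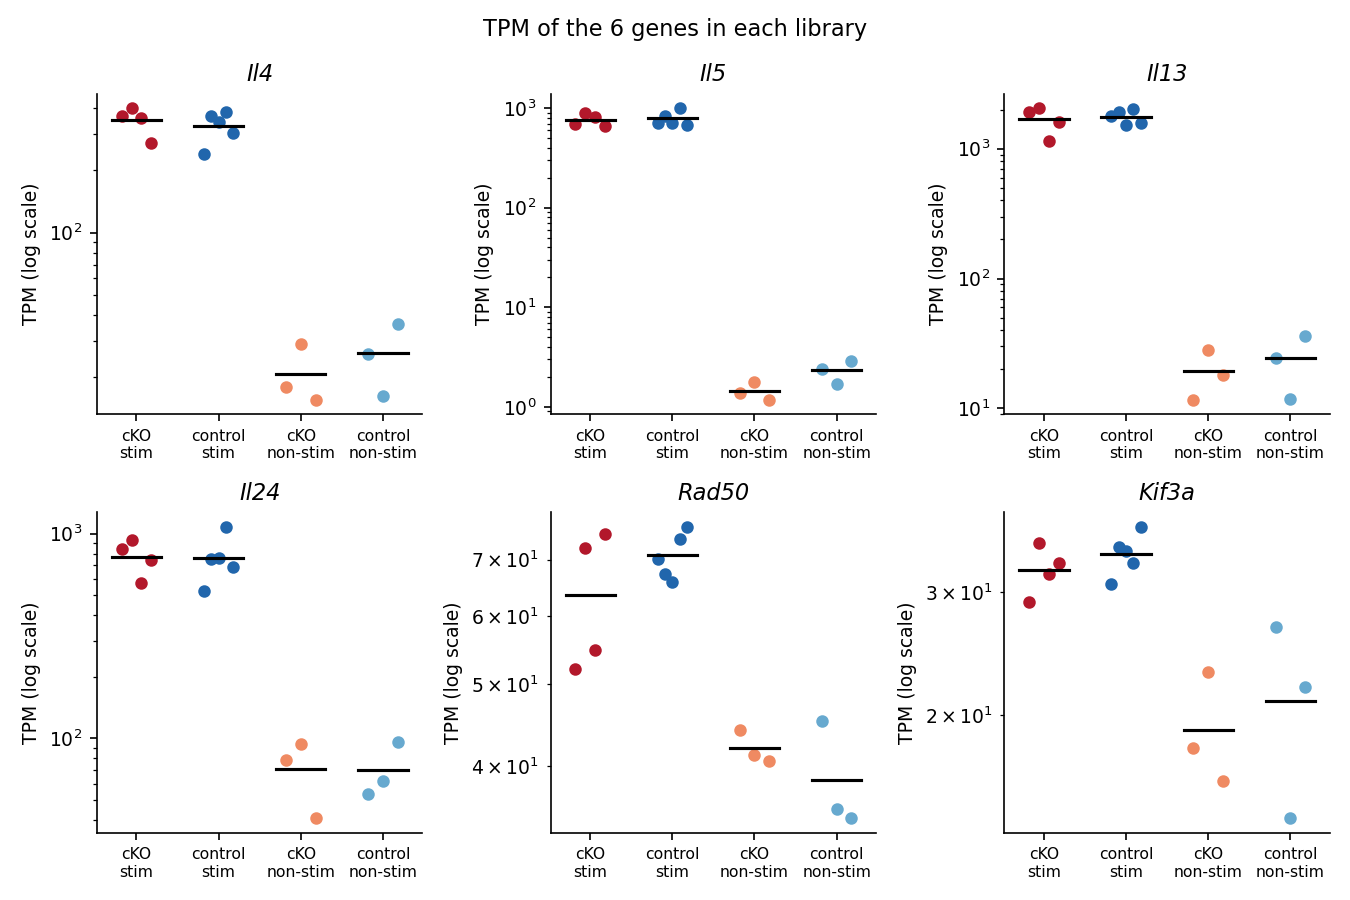
TPM of each gene in every library on a log axis, with 1 panel per gene and its own axis range, points for libraries and bars for group means. All stimulated libraries lay above all non-stimulated ones for each gene, but the share of all genes tested that separate in this way was not counted. The mean of Il5 was 766 and 787 TPM in stimulated cKO and control cells against 1.44 and 2.34 TPM in non-stimulated cKO and control cells.

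Stimulation raised all 6 genes in cKO cells and all 6 in control cells, at an adjusted p under 0.05 (edgeR quasi-likelihood test, Benjamini-Hochberg over all genes tested). Of all genes tested, 26.7% were called higher and 27.1% lower in cKO cells, and 25.4% higher and 25.2% lower in control cells. The 4 cytokine genes rose by at least 3.28 on the log2 scale, whereas Rad50 and Kif3a rose by less than 1. The median log2 fold change of the 6 was 3.86 in cKO and 3.37 in control cells, beside -0.01 and 0.00 over all genes tested. For every member the lowest stimulated library lay above the highest non-stimulated one of its genotype. For Kif3a it was 1.16 times as high in cKO and 1.07 times as high in control cells. The share of all genes tested with such a gap was not counted.

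Il5, which encodes the growth factor of eosinophils, had the largest change of the 6. Its values were 1021, 1056, 1512 and 766 CPM in stimulated cKO against 1.78, 2.32 and 1.54 CPM in non-stimulated cKO cells. In stimulated control cells it had 980, 1123, 1049, 1187 and 836 CPM, against 3.53, 2.38 and 4.37 CPM in non-stimulated control cells. The lowest stimulated library was 330 times the highest non-stimulated library in cKO and 191 times in control cells. The non-stimulated values rested on 34 to 44 counts in cKO and 46 to 101 counts in control libraries. The log2 fold change was 9.18 ± 0.31 (SE) in cKO cells, at adjusted p = 6.2e-12, and 8.22 ± 0.29 in control cells, at adjusted p = 1.1e-11 (edgeR). By size of increase it ranked 9 and 11 among all genes tested in cKO and control cells.

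Il13, the gene beside Il4, reached the highest level of the 6. It had 2079, 1811, 1591 and 1389.7 CPM in stimulated cKO against 11.2, 27.5 and 17.4 CPM in non-stimulated cKO cells. Stimulated control cells had 1836, 1897, 1676, 1772 and 1448 CPM, against 26.8, 12.1 and 40.6 CPM in non-stimulated control cells. Non-stimulated libraries of one genotype differed more than 2-fold from lowest to highest, and the stimulated libraries did not. The log2 fold change was 6.52 ± 0.44 in cKO and 6.02 ± 0.42 in control cells, with edgeR adjusted p = 6.9e-08 and 9.2e-08.

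Il4, whose product also stood in the culture medium, had 142, 125, 181 and 84.2 CPM in stimulated cKO against 6.21, 10.2 and 5.49 CPM in non-stimulated cKO cells. It had 87.7, 131, 138, 120 and 98.9 CPM in stimulated control against 10.3, 6.10 and 14.97 CPM in non-stimulated control cells. The groups were apart in both genotypes, and the lowest stimulated library was 8.22 and 5.86 times the highest non-stimulated one in cKO and control cells. The log2 fold change was 4.19 ± 0.36 in cKO and 3.45 ± 0.34 in control cells, with edgeR adjusted p = 7.5e-07 and 2.5e-06.

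Il24, of the IL-10 family cluster, had 846, 762.1, 740.0 and 601 CPM in stimulated cKO against 70.1, 84.3 and 36.7 CPM in non-stimulated cKO cells. Stimulated control cells had 501, 702, 786, 886 and 584 CPM, against 54.5, 59.0 and 99.2 CPM in non-stimulated control cells. The highest value without stimulation, 99.2 CPM, was below every stimulated value. The log2 fold change was 3.53 ± 0.32 in cKO and 3.28 ± 0.31 in control cells, with edgeR adjusted p = 7.9e-07 and 1.2e-06.

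Rad50, a DNA double-strand break repair gene, had 271, 298, 362 and 316 CPM in stimulated cKO against 183, 183 and 175 CPM in non-stimulated cKO cells. Its values were 332, 312, 348, 308 and 331 CPM in stimulated control against 225, 177 and 180 CPM in non-stimulated control cells. The groups were apart, by a narrower margin than those of the cytokine genes. The log2 fold change was 0.79 ± 0.11 in cKO and 0.75 ± 0.10 in control cells, with edgeR adjusted p = 7.0e-06 and 7.8e-06.

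Kif3a, the motor subunit gene beside Il4, had 78.2, 80.3, 106 and 75.7 CPM in stimulated cKO against 48.5, 65.5 and 39.1 CPM in non-stimulated cKO cells. It had 80.8, 92.2, 93.6, 78.1 and 90.5 CPM in stimulated control against 73.1, 42.5 and 69.7 CPM in non-stimulated control cells. The log2 fold change was 0.74 ± 0.19 in cKO cells (edgeR adjusted p = 0.0037) and 0.49 ± 0.18 in control cells (adjusted p = 0.031). The control call was the only one of the 12 that a left-out library ended: it was 0.29 (adjusted p = 0.173) without non-stimulated control replicate 2 and 0.48 (adjusted p = 0.0548) without stimulated control replicate 5.

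Without stimulated cKO replicate 3, all 6 genes were still called higher in cKO cells by edgeR. The log2 fold changes were then 4.01 for Il4, 8.99 for Il5, 6.56 for Il13, 3.54 for Il24, 0.71 for Rad50 and 0.62 for Kif3a.

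**Figure D2:**
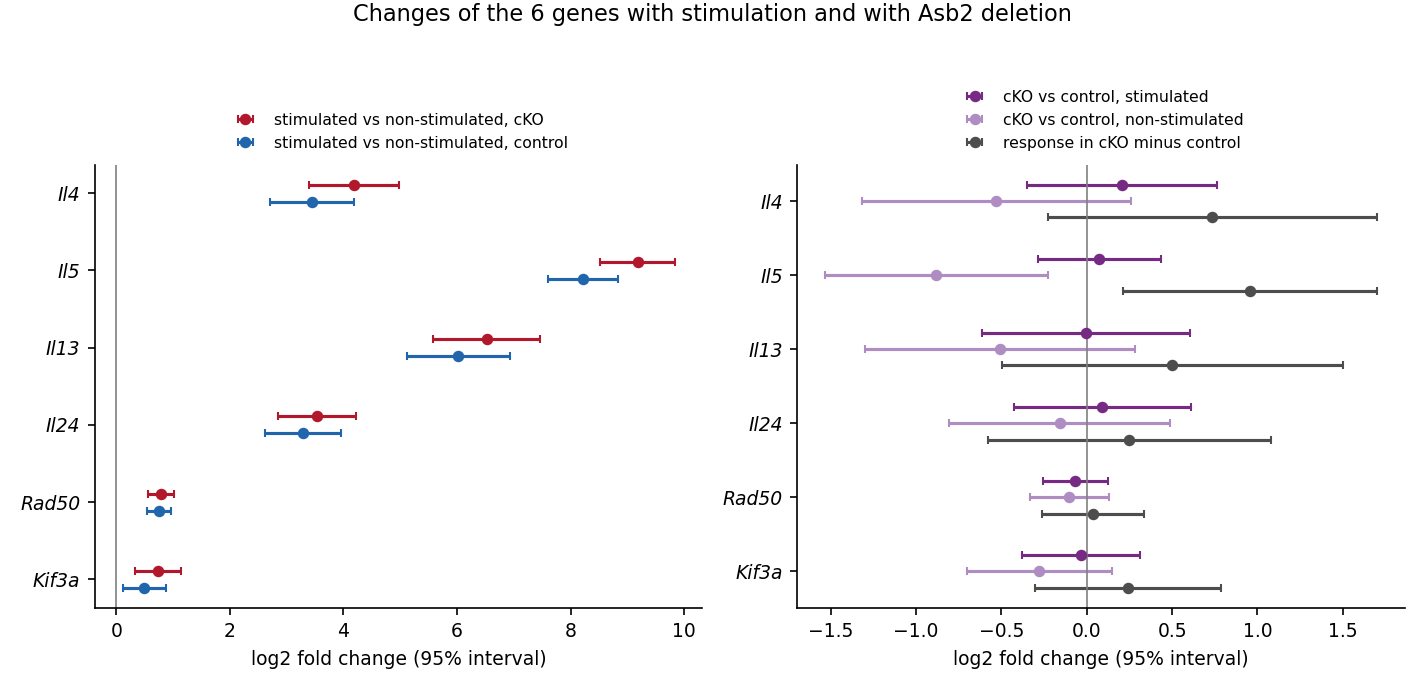
Log2 fold changes of the 6 genes with 95% intervals from the edgeR model. On the left, stimulated against non-stimulated cells, every interval lay above 0, and Il5 stood at 9.18 in cKO and 8.22 in control cells. On the right, cKO against control cells and the difference between the responses, every interval included 0 except 2 of Il5.

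In stimulated cells none of the 6 genes differed between cKO and control cells at an adjusted p under 0.05 (edgeR, adjusted p of 1 for each). Of all genes tested, 0.0064% were called, which was Asb2 alone, and 283 had an unadjusted p under 0.05. DESeq2 called 5 genes, none of them a member. Il4 averaged 133 ± 40.2 CPM in stimulated cKO and 115 ± 21.3 CPM in stimulated control cells (SD, n = 4 and 5), a log2 difference of 0.21 with a 95% interval of -0.35 to 0.76. Il5 averaged 1089 ± 311 and 1035 ± 136 CPM in stimulated cKO and control cells (0.07, interval -0.29 to 0.43). Il13 averaged 1718 ± 296 and 1726 ± 176 CPM in the same groups (-0.01, interval -0.62 to 0.60).

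The ranges of both genotypes overlapped for every member. Il24 averaged 737 ± 102 CPM in stimulated cKO and 692 ± 154 CPM in stimulated control cells, with a log2 difference of 0.09 and an interval of -0.43 to 0.61. Rad50 averaged 312 ± 38.7 and 326 ± 16.4 CPM (-0.07, interval -0.26 to 0.12), and Kif3a averaged 85.1 ± 14.1 and 87.0 ± 7.06 CPM in stimulated cKO and control cells (-0.03, interval -0.38 to 0.31). The intervals of Rad50 and Kif3a left room for a change of at most 0.26 and 0.38 on the log2 scale in either direction. Those of the 4 cytokine genes were wider and reached 0.76 for Il4. Without stimulated cKO replicate 3 the log2 differences were 0.02 for Il4, -0.13 for Il5, 0.02 for Il13, 0.08 for Il24, -0.15 for Rad50 and -0.16 for Kif3a.

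Without stimulation, the 6 genes had lower mean CPM in cKO than in control cells, and none passed the test (edgeR adjusted p of 1 for each). In mean TPM, Rad50 and Il24 were higher in cKO cells. Of all genes tested, 0.0% were called by edgeR, 402 had an unadjusted p under 0.05, and DESeq2 called 4, none of them a member. Il5 averaged 1.88 ± 0.400 CPM in non-stimulated cKO and 3.43 ± 1.00 CPM in non-stimulated control cells (SD, n = 3 each). Its log2 difference of -0.88 ± 0.31 had an interval of -1.53 to -0.23 and an unadjusted edgeR p of 0.011. By limma the difference was -0.65 on log2(TPM + 0.1) and -0.44 on log2(TPM + 1), beside medians of all genes of 0.15 and 0.12 on these scales. The 3 values of cKO cells were below the 3 values of control cells, with the nearest pair at 2.32 and 2.38 CPM. Splits of 3 against 3 libraries allow no permutation p below 0.1, so this separation by itself shows little. The share of all genes separated in this way was not counted. Asb2 ranked 3 and Il5 ranked 77 by p in this comparison.

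The other members overlapped between the genotypes without stimulation. Il4 averaged 7.31 ± 2.56 CPM in non-stimulated cKO and 10.4 ± 4.44 CPM in non-stimulated control cells, with a log2 difference of -0.53 and an interval of -1.32 to 0.26. Il13 averaged 18.7 ± 8.23 and 26.5 ± 14.2 CPM in these groups, with a difference of -0.51 and an interval of -1.30 to 0.29. Il24 averaged 63.7 ± 24.4 CPM in cKO and 70.9 ± 24.6 CPM in control cells (-0.16, interval -0.81 to 0.49). For Rad50 (181 ± 4.75 CPM in cKO, 194 ± 26.9 CPM in control) the difference was -0.10, and for Kif3a (51.0 ± 13.4 CPM in cKO, 61.8 ± 16.8 CPM in control) it was -0.28. When single libraries were left out, the difference ran from -0.85 to -0.17 for Il4 and from -0.89 to -0.06 for Il13. The lower size came without non-stimulated control replicate 3 for both (-0.17 and -0.06), and Il13 was -0.25 without non-stimulated cKO replicate 1. The larger size came without non-stimulated cKO replicate 2 (-0.85 for Il4 and -0.89 for Il13) or non-stimulated control replicate 2 (-0.80 for Il4 and -0.85 for Il13).

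The stimulation responses of cKO and control cells share no libraries, and their difference was tested as an interaction in the same model. Of all genes tested, 0.0% were called by edgeR, 605 had an unadjusted p under 0.05, and DESeq2 called 2, none of them a member. For Il5 the estimate, cKO minus control, was 0.95 ± 0.35 on the log2 scale, with an interval of 0.21 to 1.70. Its unadjusted edgeR p was 0.015 and its adjusted p 0.997. By limma the estimate was 0.61 on log2(TPM + 0.1) and 0.41 on log2(TPM + 1). The stimulated levels of Il5 differed by 0.07 and the non-stimulated levels by -0.88, so most of this estimate came from the non-stimulated libraries. The estimates for Il4 (0.74), Il13 (0.50), Il24 (0.25), Kif3a (0.24) and Rad50 (0.04) had intervals that included 0. Leaving out single libraries moved the estimate from 0.38 to 1.06 for Il4, from 0.73 to 1.16 for Il5 and from 0.05 to 0.88 for Il13, with the lowest value of each without non-stimulated control replicate 3. The highest came without non-stimulated cKO replicate 2 for Il4 and Il13 and without non-stimulated control replicate 2 for Il5. Without stimulated cKO replicate 3 the estimates were 0.56 for Il4, 0.76 for Il5, 0.54 for Il13, 0.25 for Il24, 0.12 for Kif3a and -0.04 for Rad50.

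Libraries of one group differed in several members at a time, and not in the cytokine genes only. Among non-stimulated libraries, control replicate 3 and cKO replicate 2 had the highest values of their groups for Il4, Il5, Il13 and Il24. Non-stimulated cKO replicate 2 was also the highest for Kif3a, with 65.5 CPM against 48.5 and 39.1 CPM. For Rad50 it was the highest in CPM by a small margin, at 183.4 against 183.2 CPM in replicate 1, but not in TPM. Non-stimulated control replicate 2 had the lowest values for Il4, Il5, Il13 and Kif3a. For Rad50 it was the lowest in CPM, at 176.8 against 179.7 CPM in replicate 3, but not in TPM. Among stimulated cKO libraries, replicate 3 was highest for Il4, Il5, Rad50 and Kif3a in CPM but not for Il13 or Il24. Replicate 4 was lowest in CPM for the 4 cytokine genes and Kif3a. By TPM, stimulated cKO replicate 3 was not the highest of its group for any member, with 818 TPM for Il5 against 888 TPM in replicate 2. It was the lowest for Il13 and Il24, with 1156 and 577 TPM against 1610 and 747 TPM in replicate 4. Replicate 4 stayed the lowest for Il4 and Il5 in TPM.

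**Figure D3:**
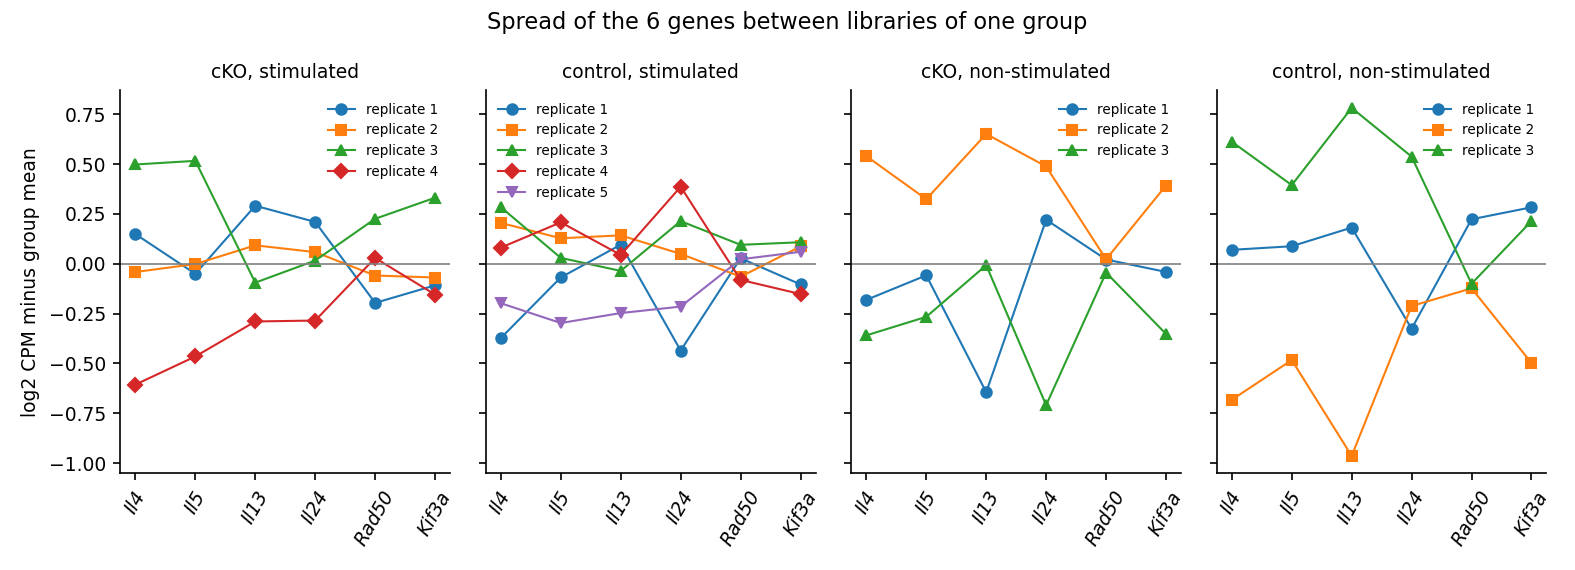
Log2 CPM of each gene in each library minus the mean of its group, with 1 panel per group and 1 line per library. Non-stimulated cKO replicate 2 and control replicate 3 lay above their group means for the 4 cytokine genes and for Kif3a (0.39 and 0.21). Kif3a lay at -0.50 in non-stimulated control replicate 2, whereas Rad50 stayed within 0.23 of the mean in every library.

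Over the 9 stimulated libraries, 6 pairs of cytokine genes were compared on log2 CPM. Il4 and Il5 gave Pearson's r = 0.85 (exact permutation p = 0.0048, adjusted over the 6 pairs p = 0.029) and Spearman's rho = 0.67 (exact permutation p = 0.059, adjusted p = 0.27). Without the 2 libraries farthest from the median of Il4, stimulated cKO replicates 3 and 4, r was 0.55, so the size of r depended on them. On log2 TPM r was 0.67, with adjusted p = 0.137. The adjusted permutation p for r of the other 5 pairs ran from 0.083, for Il4 with Il24 (r = 0.72), to 0.33. The genotypes held 4 and 5 of these libraries, so no r within a genotype is reported.

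Ratios within a library do not depend on its total. Il13 exceeded Il5 in TPM by 1.41 to 2.75 times in stimulated cKO and 2.01 to 2.53 times in stimulated control libraries, against 8.49 to 16.0 times in non-stimulated cKO and 6.85 to 12.5 times in non-stimulated control libraries. The ratio of Il5 to Il4 ran from 1.90 to 2.41 in stimulated cKO and 2.04 to 2.98 in stimulated control libraries, against 0.062 to 0.077 and 0.080 to 0.106 in non-stimulated cKO and control libraries. Thus Il5 RNA exceeded Il4 RNA in all stimulated libraries and was below it in all non-stimulated ones. Without stimulation the ranges of this ratio did not overlap between the genotypes, with 3 libraries each, whereas those of the other ratios did. This difference was not tested. Il13 and Il4 were close to each other without stimulation, with ratios of 0.653 to 1.16 in cKO and 0.729 to 1.00 in control libraries, and 3.23 to 5.91 and 4.39 to 7.53 in stimulated cKO and control libraries.

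The ratios did not separate the genotypes in stimulated cells. The geometric mean of Il13 to Il5 was 2.17 in stimulated cKO and 2.26 in stimulated control cells (exact permutation p = 0.865), and that of Il13 to Il4 was 4.75 and 5.42 (exact permutation p = 0.413). Il5 to Il4 gave 2.19 and 2.40 (exact permutation p = 0.357), and Il13 to Il24 gave 2.16 and 2.36 (exact permutation p = 0.595). The p-values adjusted over the 4 ratios were 0.794 to 0.865, two-sided, where the 126 splits of 4 against 5 libraries allow no p below 0.0079. Without stimulated cKO replicate 3 the log2 difference between cKO and control cells was 0.15 for Il13 to Il5 (exact permutation p = 0.179), against -0.06 with it, and -0.0045 for Il13 to Il4, against -0.19 with it. The 4 cytokine genes together made up 0.357 ± 0.0600% of all TPM in stimulated cKO and 0.364 ± 0.0533% in stimulated control cells (exact permutation p = 0.857), against 0.0112 ± 0.00385% in non-stimulated cKO and 0.0123 ± 0.00425% in non-stimulated control cells. The difference of this share in stimulated cells was 0.015 percentage points without stimulated cKO replicate 3 (exact permutation p = 0.679).

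**Figure D4:**
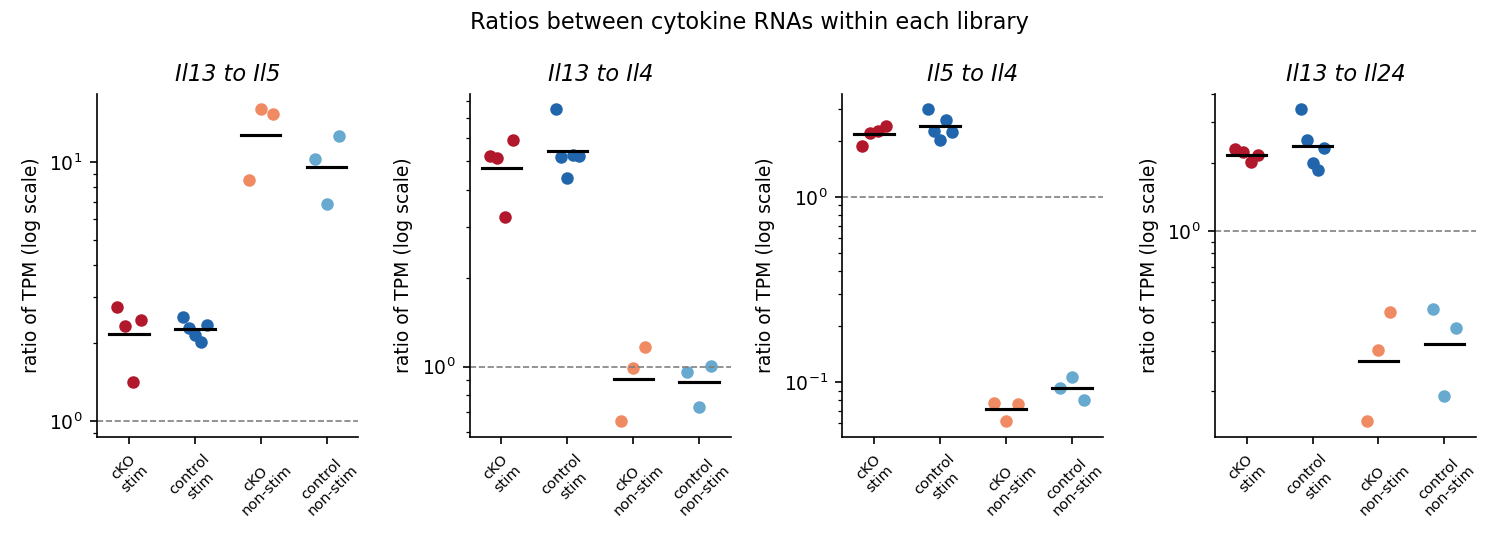
Ratio of 2 cytokine RNAs in TPM within each library on log axes, with points for libraries and bars for geometric means. A dashed line marks a ratio of 1. The genotypes overlapped in the stimulated libraries of all 4 panels, and in the non-stimulated libraries of all panels but Il5 to Il4. Il5 to Il4 was at least 1.90 in all stimulated libraries and at most 0.106 in all non-stimulated ones.

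The genes around the members were taken in the order of the GRCm38.p6 annotation, within 500 kb of the Il13 and Il24 starts. Around Il13 there were 15 other protein-coding genes, of which 10 were tested. In cKO cells 2 rose and 3 fell with stimulation, and in control cells 3 rose and 3 fell, with a median log2 fold change of 0.05 and -0.06. These counts were near the shares of all genes, of which 26.7% were called higher and 27.1% lower in cKO cells and 25.4% higher and 25.2% lower in control cells. Without non-stimulated control replicate 2, 1 rose and 3 fell in control cells. On the Kif3a side the next gene was Septin8, a cytoskeletal GTPase gene, which rose by 0.75 in cKO and 0.79 in control cells (edgeR adjusted p = 8.9e-06 and 3.4e-06), close to the changes of Kif3a and Rad50. On the Il5 side the next gene was Irf1, an interferon-regulated transcription factor gene, with -0.18 in cKO and -0.11 in control cells (adjusted p = 0.309 and 0.527). The cytokine genes therefore had neighbours on both sides, and Rad50 between them, with changes below 1 on the log2 scale. Csf2 and Il3, which belong to another cytokine cluster of chromosome 11, are described with the other cytokine genes.

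Around Il24 there were 19 other protein-coding genes, of which 13 were tested, and their calls are to be read against the same shares of all genes. In cKO cells 4 rose and 4 fell, and in control cells 4 rose and 2 fell, or 1 fell without any one of stimulated cKO replicate 2, stimulated control replicates 1 and 3 and non-stimulated control replicates 1 and 2. By limma on log2(TPM + 0.1), 3 rose and 2 fell in cKO and 3 rose and 1 fell in control cells. Il10, the gene of an inhibitory cytokine in the same cluster, rose by 2.54 ± 0.33 in cKO and 2.27 ± 0.32 in control cells (edgeR adjusted p = 2.8e-05 and 5.7e-05). It averaged 494 TPM in stimulated cKO and 497 TPM in stimulated control cells, against 92.3 and 91.4 TPM in non-stimulated cKO and control cells. Il19, another gene of the cluster, fell by 2.11 in cKO cells (edgeR adjusted p = 0.002) and had -1.19 in control cells, which did not pass (adjusted p = 0.063), at 0.483 and 0.455 TPM in stimulated cKO and control cells. Il20, which stands between Il24 and Il19, had too few counts to test and did not exceed 0.332 TPM in any library. Fcmr, an IgM receptor gene on the other side of Il24, had -0.11 in cKO and -0.23 in control cells, which did not pass (adjusted p = 0.603 and 0.239).

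**Figure D5:**
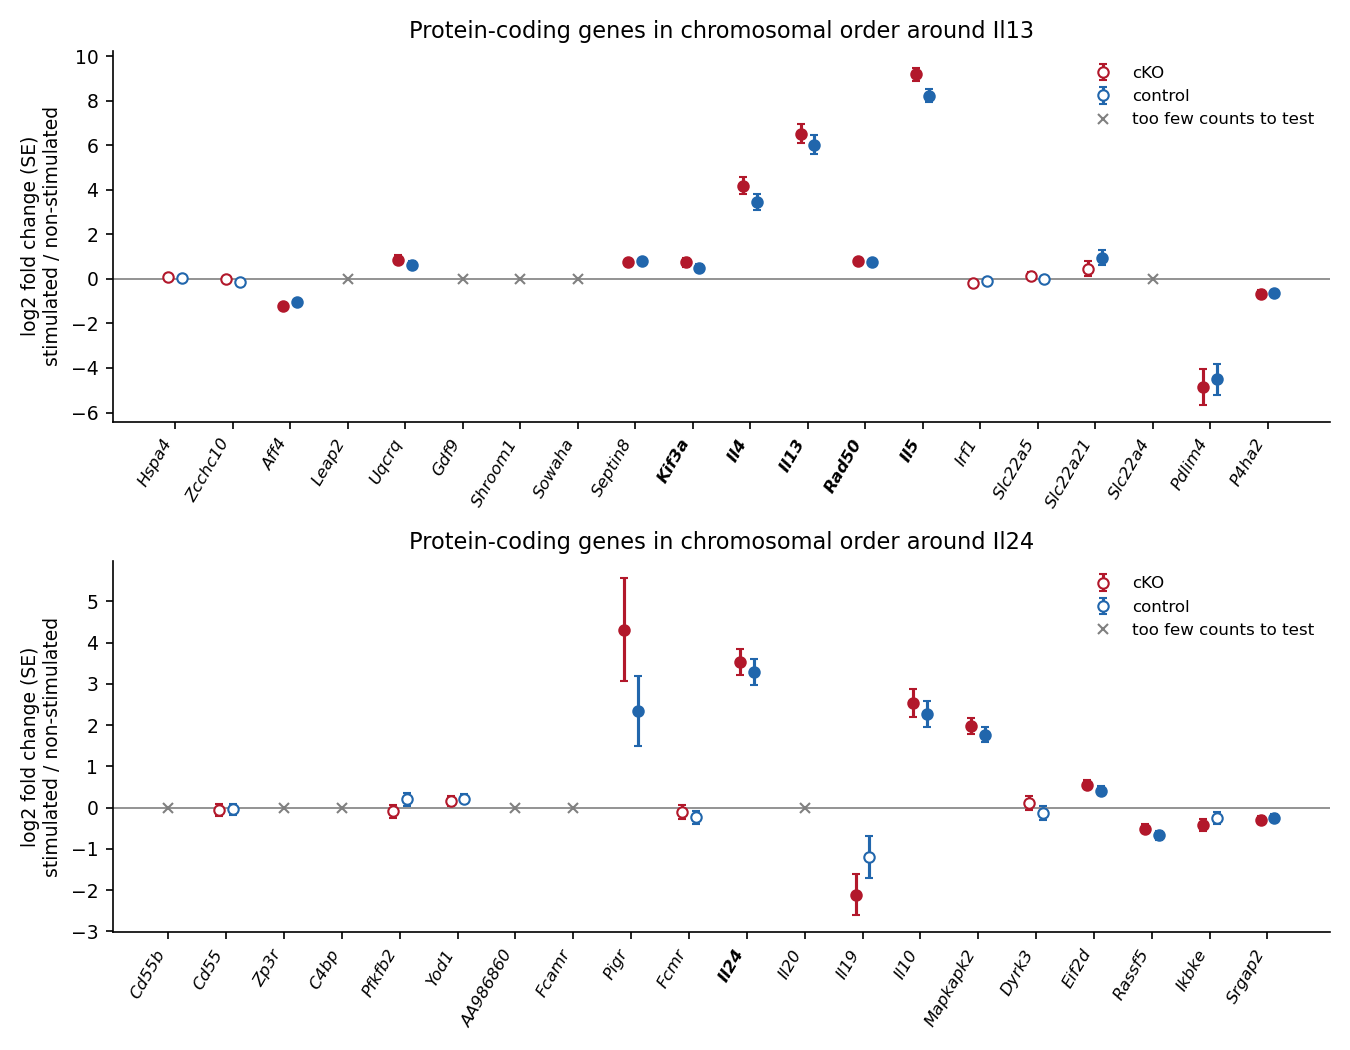
Log2 fold change with stimulation (SE) of protein-coding genes in chromosomal order around Il13 (above) and Il24 (below), in cKO and control cells. Filled points passed an adjusted p of 0.05, open points did not, crosses had too few counts, and symbols in bold are the 6 genes described here. Il4, Il13 and Il5 stood above 3.4 with Rad50 between Il13 and Il5 at 0.79 and 0.75 in cKO and control cells.

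The pathway lists that follow were chosen with earlier results of these data known, and their counts are given beside the background of 26.7% of genes called higher and 27.1% lower in cKO cells and 25.4% higher and 25.2% lower in control cells. All 8 other type 2 cytokine genes were tested and all 8 rose in both genotypes, with a median log2 fold change of 5.08 in cKO and 5.12 in control cells when genes without counts in non-stimulated cells were set at a floor of 3 counts over the group. Csf2, which encodes the granulocyte-macrophage growth factor, averaged 240 and 251 TPM in stimulated cKO and control cells, against 7.53 and 7.97 TPM in non-stimulated cKO and control cells. Il3, a growth factor gene for mast cells and basophils, averaged 91.4 TPM in stimulated cKO and 78.0 TPM in stimulated control cells and had no count in any non-stimulated library, which made it at least 756-fold and 617-fold higher in stimulated cKO and control cells. Il9, a mast cell growth factor gene, averaged 5.72 and 7.17 TPM in stimulated cKO and control cells and had no count without stimulation. Thus Il13, Il5 and Il24 stood above Csf2, Il3 and Il9 in mean TPM in stimulated cells, and Il10 stood between Il24 and Il4.

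Of 10 receptor genes for the member cytokines, 6 were tested, of which 2 rose and 3 fell in each genotype (median -0.16 in cKO and -0.12 in control cells). Il4ra, the chain shared by the IL-4 and IL-13 receptors, fell by 1.07 in cKO and by 1.11 in control cells on the log2 scale. Il2rg, the common cytokine receptor chain that pairs with it, rose by 0.63 in cKO and 0.44 in control cells. Il20rb, a chain of receptors for IL-24, fell by 0.95 in cKO and by 0.68 in control cells. Il5ra and Il13ra1, chains of the IL-5 and IL-13 receptors, had too few counts to test. Of 10 genes of IL-4 signalling, 7 rose and 2 fell in each genotype (median 0.52 in cKO and 0.42 in control cells), where Stat6, the transcription factor activated by the receptor, rose by 0.53 and 0.42, Irs2, an adaptor, rose by 1.52 and 1.22, and Jak1, a receptor kinase, fell by 0.84 and by 0.89 in cKO and control cells. By limma on log2(TPM + 0.1), 5 of these rose and 1 fell in cKO and 6 rose and 1 fell in control cells, and 1 fell in control cells without non-stimulated control replicate 2 or 3. On that scale Il20rb did not pass in control cells, at -0.47, nor did it by edgeR without non-stimulated control replicate 2, at -0.45 (adjusted p = 0.099).

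Among 20 activators of the locus, 9 rose and 4 fell in cKO cells and 8 rose and 5 fell in control cells, with medians of 0.27 and 0.16. By limma on log2(TPM + 0.1), 3 fell in control cells. Gata3, the factor that defines Th2 cells, did not pass the test, with 0.17 in cKO and 0.04 in control cells, and averaged 242 TPM in stimulated cKO, 249 TPM in stimulated control, 224 TPM in non-stimulated cKO and 218 TPM in non-stimulated control cells. Stat5a, which acts downstream of IL-2, rose by 2.47 in cKO and 2.37 in control cells, and Irf4, a partner of NFAT and AP-1 factors, rose by 1.41 and 1.28. The AP-1 family genes Junb (0.98 in cKO and 0.86 in control) and Batf (0.70 and 0.47) also rose. Nfatc2, an NFAT gene, fell by 0.93 in cKO and by 0.79 in control cells, whereas Nfatc1 (0.02 and 0.04), Maf (0.20 and 0.07) and Gfi1 (0.17 and -0.02) did not pass.

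Of 9 repressors of the locus, none rose, 7 fell in cKO cells and 6 fell in control cells, with medians of -0.37 and -0.41. By limma on log2(TPM + 0.1), 4 fell in cKO and 2 in control cells, and 4 fell in cKO cells without any one of stimulated cKO replicates 2 and 4 and non-stimulated cKO replicates 2 and 3. Bcl6, the factor of follicular helper cells, fell by 2.09 in cKO and by 2.30 in control cells, and Zfpm1, which binds GATA3, fell by 1.00 and by 0.82. Runx3, a silencer of Il4 in Th1 cells, fell by 0.41 and by 0.57. In cKO cells this call was lost without any one of stimulated cKO replicates 1, 2 and 3 and non-stimulated cKO replicates 2 and 3 (-0.40 to -0.32, adjusted p up to 0.132). In control cells it held in all 15 such fits but was -0.38 without non-stimulated control replicate 3, and by limma on log2(TPM + 0.1) it was called in neither genotype. Tbx21, the factor of Th1 cells, did not pass (-0.14 in cKO and -0.21 in control cells). Of 10 genes of chromatin looping and remodelling, 1 rose and 3 fell in cKO cells and 2 rose and 4 fell in control cells, with medians of -0.17 and -0.23. Without non-stimulated cKO replicate 1 none rose and 2 fell in cKO cells, and without non-stimulated control replicate 1 only 1 fell in control cells. The looping factor gene Ctcf fell by 0.49 in cKO and by 0.57 in control cells, and Satb1, an organiser of the locus counted with the activators, fell by 0.42 and by 0.52, where the call in control cells was lost by limma on log2(TPM + 0.1), at -0.33.

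The 3 partners of RAD50 and the 3 partners of KIF3A were examined beside their own genes. Mre11a, the nuclease of the RAD50 complex, rose by 0.36 in cKO and 0.27 in control cells, and Atm, the kinase that the complex activates, rose by 0.63 and 0.73. By limma on log2(TPM + 0.1) neither passed in cKO cells, at 0.23 for Mre11a and 0.41 for Atm. Nbn, the third subunit of the complex, did not pass (-0.13 and -0.14). Kif3b, the main motor partner of KIF3A, rose by 0.65 in cKO and 0.46 in control cells, and the adaptor gene Kifap3 had 0.29 in cKO cells, which did not pass, and 0.35 in control cells. The Kifap3 call in control cells stood near the threshold (edgeR adjusted p = 0.049), DESeq2 did not make it, and it held in only 6 of the 15 fits that left out 1 library (0.23 to 0.47, adjusted p up to 0.230). It was lost without any one of the 3 non-stimulated cKO libraries, stimulated control replicates 1, 2, 3 and 5 and non-stimulated control replicates 2 and 3. In cKO cells Kifap3 was called without stimulated cKO replicate 4, at 0.39. Kif3c, an alternative motor subunit gene, fell by 0.56 in cKO cells and had -0.33 in control cells, which did not pass. No gene of any of these lists was called between cKO and control cells by edgeR, with or without stimulation.

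The cell type lists were read as summed TPM. The CD4 T cell list lay between 907 and 1439 TPM in every library and the Th2 list between 425 and 734 TPM. The mean levels within the Th2 list did not all lie in the same direction. Il1rl1, the IL-33 receptor gene, averaged 82.6 TPM in stimulated cKO and 88.4 TPM in stimulated control cells, against 35.5 and 34.6 TPM in non-stimulated cKO and control cells. Epas1, a hypoxia-inducible factor gene, averaged 51.4 and 57.6 TPM in stimulated cKO and control cells, against 131 and 121 TPM in non-stimulated cKO and control cells, and Il17rb, an IL-25 receptor gene, did not exceed 0.137 TPM in stimulated libraries, against 1.37 to 2.78 TPM in non-stimulated ones. Ptgdr2, a prostaglandin D2 receptor gene, was at or near 0 in every library, with at most 0.043 TPM. Mast cells and basophils also make IL-4 and IL-13. The 5 genes of their list summed to 0.143 to 1.39 TPM in stimulated cKO and 0.0506 to 0.496 TPM in stimulated control libraries. Without stimulation they summed to 2.90 to 11.7 TPM in cKO and 2.28 to 5.33 TPM in control libraries. Cpa3, a mast cell protease gene, averaged 0.347 TPM in stimulated cKO and 0.067 TPM in stimulated control cells, against 6.02 and 3.20 TPM in non-stimulated cKO and control cells. Mcpt8, a basophil protease gene, averaged 0.230 and 0.249 TPM in stimulated cKO and control cells, against 0.286 and 0.159 TPM in non-stimulated cKO and control cells. The other 3 genes of the list, Ms4a2, Fcer1a and Mcpt4, were each at or near 0 in every library. The 3 eosinophil genes summed to 2.45 to 6.85 TPM in stimulated cKO and 2.64 to 4.52 TPM in stimulated control libraries, against at most 0.278 TPM without stimulation. Nearly all of it was Siglecf, whereas Epx, an eosinophil peroxidase gene, did not exceed 0.018 TPM in any library.

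Other cell types had low sums. The 2 CD8 T cell genes summed to 3.57 to 9.27 TPM in stimulated cKO and 4.44 to 17.4 TPM in stimulated control libraries, against 7.09 to 11.8 and 4.81 to 14.2 TPM in non-stimulated cKO and control libraries. The 4 myeloid genes reached 0.641 and 0.677 TPM in stimulated cKO and control libraries, against 5.49 and 7.75 TPM in non-stimulated cKO and control libraries, with Lyz2 at 0 throughout. The 4 B cell genes did not exceed 2.25 TPM and the 3 NK and NKT genes 8.16 TPM in any library. The endothelial list reached 66.4 TPM, almost all of it Pecam1, while Cdh5, the VE-cadherin gene, did not exceed 0.048 TPM. The part of these cells in the cytokine values was not tested.

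Log2 CPM with a prior count of 2 was centred on each gene's mean over the 15 libraries. Among 11393 genes, those with the most similar profile had the smallest root mean square difference. For Il4 they were Plk2, Siglecf and Slc17a6, at differences of 0.30 to 0.31. For Il5 they were Pth, Il1a and Il3 at 0.44 to 0.49, and for Il13 Inhba, Slc7a2 and Cxcl3 at 0.31 to 0.49. For Il24 they were Lif, Fosl1 and Sgms2 at 0.26 to 0.31. For Rad50 they were Ssx2ip, Taf15 and Spg20 at 0.08 to 0.09, and for Kif3a Nop58, Ptpn2 and Pla2g12a at 0.14 to 0.16. No member was among the 3 nearest genes of another member. The prior count shrinks changes from values near 0. Il3 had no count in any non-stimulated library, so its nearness to Il5 does not mean an equal fold change.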

How the data were processed

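RNA was sequenced from 15 libraries of mouse Th2 cells made with a stranded total RNA kit after removal of ribosomal RNA, per the labels' protocols. The deposited tables gave 56748 genes in each library an estimated count and a TPM value, and the TPM values were scaled for length and library by the authors. The submitters' processing notes name the tools cutadapt 3.4, STAR 2.7.9a and Salmon 1.10.1 with genome build GRCm39. The annotation and whether strand was used in counting are not given in the sources used here.

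Estimated counts were rounded to whole numbers and genes were filtered by group size with edgeR 4.0.16 (filterByExpr), which left 15619 genes with at least 99.9% of each library's counts. Library sizes were scaled by TMM. edgeR's quasi-likelihood test (R 4.3.3) used all 15 libraries, a mean for each of 4 groups and robust dispersion. The 5 comparisons were two-sided with Benjamini-Hochberg adjustment over all genes tested, and calls needed an adjusted p under 0.05. The model was tested on counts simulated from its own fitted spread, with far fewer genes changed than were called with stimulation here. CPM values use the scaled library sizes, and errors are SD over libraries or SE of log2 fold changes. Libraries were not treated as paired by replicate number in the main model. Only 3 of 19 same-numbered pairs had a correlation of deviations above 0.1. Differently numbered pairs were not summarised beside them, so this check cannot show that libraries were unpaired. Promoter windows and the order of genes came from RefSeq tables of GRCm38.p6, and no coordinate was carried over to GRCm39.

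Named genes were the 6 members, Asb2, genes of short lists, marked genes of longer lists, the genes next to a member, and the 3 nearest profiles. Markers named singly were chosen after their values were seen. The members and lists were chosen with earlier results of these data known. The alternatives were size factors by relative log expression, other filters, only the groups compared, a replicate block, no robust dispersion, DESeq2 1.42.0, limma-voom (limma 3.58.1) with sample weights, limma on log2 TPM with 0.1 or 1 added, and leaving out each library. Intervals rest on the spread between these libraries, which the labels do not say came from separate mice. Reads carried no molecular identifiers.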

Additional observations from a re-analysis of the deposited data

Results flagged for a closer look

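Among the 22 groups of 4 or 5 stimulated libraries checked with Dixon's criterion for a single distant library, 2 were picked out, where chance picks about 1 in 20. Kif3a in stimulated cKO cells had its highest value, 106 CPM, in replicate 3, against 75.7 to 80.3 CPM in the other 3 libraries. This is the library with 9.43% of mitochondrially encoded counts. In TPM its Kif3a value was 31.9, between 29.0 TPM in replicate 1 and 35.2 TPM in replicate 2. The distance was thus seen in CPM only. The TPM ratio of Il13 to Il4 in stimulated control cells was 7.53 in replicate 1, against 4.39 to 5.24 in the other 4 libraries. That library had the lowest Il4 value of its group, 87.7 CPM.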

How the results depend on the processing

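All 6 members were called higher with stimulation under every alternative in cKO cells, and Il4, Il5, Il13, Il24 and Rad50 were so in control cells. Kif3a in control cells was not called without a filter on low counts (0.50) or with the replicate number as a block (0.53), nor in 2 of 15 fits that left out a library (0.29 to 0.63). No member was called between genotypes or in the interaction under any alternative. DESeq2 called 5 genes between stimulated cKO and control cells, where edgeR called 1. The replicate block changed the call of no other member.

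Differences that did not pass the test turned in direction as follows, on the log2 scale, and the cause was not tested. Il5 in stimulated cKO against control cells was -0.031 with the replicate block, -0.051 by limma-voom, and -0.034 and -0.034 by limma on log2(TPM + 0.1) and log2(TPM + 1). Il24 without stimulation was 0.029 by limma-voom. On the 2 TPM scales Rad50 was 0.13 and 0.13 without stimulation and -0.31 and -0.30 in the interaction. The median of all genes was itself shifted there, by 0.15 for cKO against control without stimulation and by -0.21 in the interaction with 0.1 added. With stimulation on these scales in control cells, Gfi1 was 0.116 and 0.113, Asb2 0.048 and 0.043 and Irf1 0.114 and 0.110, beside a median of all genes of 0.14 and 0.10, and Csf2rb was -0.026 with 1 added. Nfatc1 in cKO cells was -0.115 and -0.110. By limma-voom Gfi1 was 0.014 and Asb2 0.00045 in control cells, and with the replicate block Maf was -0.0012. The summed share of the 4 cytokine genes differed by 0.00019 percentage points on estimated counts. The r of Il4 and Il5 was 0.67 on log2 TPM and 0.55 without 2 libraries.

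Leaving out single libraries gave these ranges. Between stimulated cKO and control cells they were -0.13 to 0.21 for Il5, -0.11 to 0.090 for Il13 and -0.16 to 0.023 for Kif3a. Without stimulation they were -0.41 to 0.16 for Il24 and -0.16 to 0.018 for Rad50, and in the interaction -0.072 to 0.51 for Il24 and -0.084 to 0.098 for Rad50. With stimulation in control cells Maf ran from -0.029 to 0.23, Gfi1 from -0.19 to 0.12, Tbx21 from -0.44 to 0.20 and Asb2 from -0.33 to 0.15. In cKO cells Nfatc1 ran from -0.073 to 0.098, Tbx21 from -0.35 to 0.17 and Fcmr from -0.26 to 0.00090. The log2 difference of the Il13 to Il5 ratio ran from -0.17 to 0.15 and that of Il13 to Il24 from -0.21 to 0.0057. The difference in summed share ran from -0.030 to 0.015 percentage points. Depth limits Il5 without stimulation, which rested on 34 to 101 counts a library.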
